A study of Mus musculus with 16 samples.

Results

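The nuclear genes of respiratory complexes II to V and of cytochrome c were described in quadriceps muscle of mice that carried C26 tumours. The members were taken by symbol from the table of raw counts: Sdha, Sdhb, Sdhc and Sdhd, every symbol that starts with Uqcr or Atp5, symbols of Cox followed by a number from 4 to 8 and then a, b or c, and Cyc1 and Cycs. This gave 44 of 13320 genes, 4 of complex II, 9 of complex III, 1 for cytochrome c, 13 of complex IV and 17 of complex V. Messenger RNA was sequenced in 16 libraries from the quadriceps of male CD2F1 mice, which were 8 weeks old at the start, in 4 groups of 4 libraries. C26, a mouse colon carcinoma line, is used as a model of cancer cachexia because tumour-bearing mice lose muscle. Mice labelled splenic C26 received the cells in the spleen, a route that models spread of the cancer to the liver. Sham animals had surgery and received saline. Mice labelled subcutaneous C26 received the cells below the skin. How their tumour-free controls were treated is not stated. The labels name no genetic change, and the treatments they state are the tumour cells and the saline. The week of sampling is not given.

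The respiratory chain of the inner mitochondrial membrane passes electrons from nutrients to oxygen and pumps protons, and ATP synthase uses the proton gradient to make ATP. Succinate dehydrogenase is complex II, the cytochrome bc1 complex is complex III, cytochrome c carries electrons from it to cytochrome c oxidase, which is complex IV, and ATP synthase is complex V. Several subunits of complexes IV and V have several alternative genes, and heart and skeletal muscle use their own isoforms of some of them. Oxidative fibres hold more mitochondria than glycolytic fibres, and the quadriceps of the mouse is mostly made of fast fibres.

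Library totals ranged from 25.9 to 34.9 M counts, and every member had at least 263 counts in every library. Genes absent from the deposited table could not become members. The 7 markers of skeletal muscle fibres were found in all libraries, with a summed level of 106186 to 251286 (CPM, counts scaled to library size after normalisation). The highest sum was in subcutaneous C26 replicate 3, against 106186 to 153280 in the other libraries of that group. The members took 1.45% to 1.83% of all counts in the tumour-free libraries, 1.07% to 1.17% in splenic C26 and 0.778% to 1.26% in subcutaneous C26. A single library stood apart in this gene set. Subcutaneous C26 replicate 3 was the highest of its group in 44 of 44 members and lay inside the range of the control libraries in 27 of them. Over all genes it was the highest of its group in 5095 and inside the control range in 4061 of 13320. Log2 fold changes of named genes and counts of calls for the subcutaneous tumour are therefore given with and without it. It was picked by its values in these members, so lower member values without it follow from that choice. Separate animals are not stated for the libraries within a group, so every p-value reflects spread between samples that could be technical.

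Per length of the principal transcript, which was known for 42 members, the genes of the beta and alpha subunits of ATP synthase led in the tumour-free muscle. Their mean levels were 1309 CPM per kb for Atp5b, the beta subunit, and 883 for Atp5a1, the alpha subunit. The muscle isoforms Cox6a2 (695 CPM per kb) and Cox8b (595) came next and stood far above their widely expressed counterparts Cox6a1 (72.5) and Cox8a (72.3). Among the subunits of complex II the iron-sulphur protein gene Sdhb had 335 CPM per kb, the flavoprotein gene Sdha 298, and the membrane anchor genes Sdhd and Sdhc 155 and 80.7. The least abundant member was Atp5s with 6.84 CPM per kb. The rule takes Atp5s and Atp5sl by name, although neither encodes a subunit of the enzyme, and Cox7a2l encodes a factor of respiratory supercomplexes.

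Relative to the mean of the 8 tumour-free libraries, every complex was lower on average in both tumour groups. A complex level is the mean over its members of log2 CPM minus the member's mean in the tumour-free libraries. For complex II it was 0.02, -0.00065, -0.0039 and -0.02 in sham replicates 1 to 4 and -0.56, -0.34, -0.33 and -0.68 in splenic C26. It was -0.04, -0.08, 0.14 and -0.02 in control and -1.06, -0.93, -0.03 and -1.01 in subcutaneous C26. All 4 splenic C26 libraries lay below every sham library, whereas in subcutaneous C26 replicate 3 stood among the controls and the other 3 lay far below them.

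The complex III level was -0.54, -0.41, -0.22 and -0.51 in splenic C26 against -0.02, -0.02, -0.02 and 0.01 in sham. In subcutaneous C26 it was -1.11, -1.0, -0.0027 and -0.96, against -0.03, -0.03, 0.13 and -0.03 in control. The complex V level was -0.50, -0.23, -0.13 and -0.36 in splenic C26 and -0.87, -0.77, 0.04 and -0.79 in subcutaneous C26, with sham between -0.09 and 0.03 and control between -0.07 and 0.13. Complex IV overlapped between splenic C26 (-0.48, -0.24, -0.02 and -0.08) and sham (-0.15, 0.17, 0.01 and -0.05). Its subcutaneous C26 levels were -0.82, -0.78, -0.01 and -0.66, against 0.12, 0.01, 0.07 and -0.18 in control, so 3 of 4 were lower than any control. The members of complex IV spread widely in sham replicates 1 and 2 (SD over members 0.33 and 0.43, against 0.03 in both for complex III). Within sham, Cox6a1 (17.8 and 86.95 CPM) and Cox8a (22.2 and 71.7 CPM) were lowest in replicate 1 and highest in replicate 2. The complex IV level without these genes is not given here. In bulk muscle, fewer cells or fibres of a type and less of these transcripts per cell cannot be told apart.

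**Figure D1:**
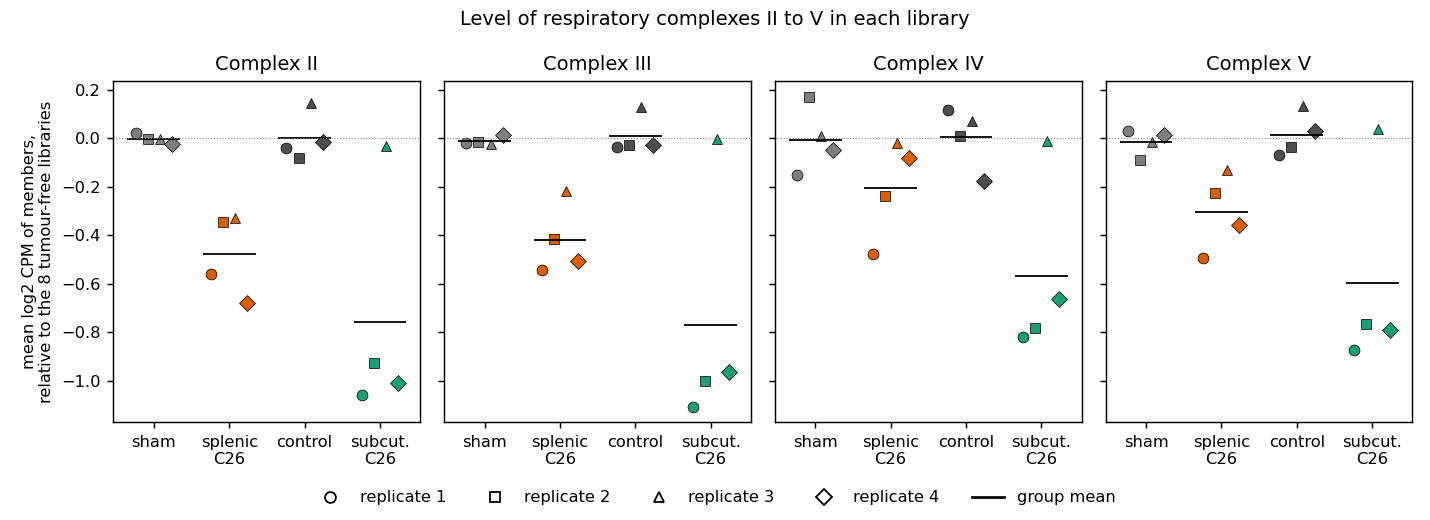
Level of each complex in each library (y axis, mean log2 CPM of the members relative to the 8 tumour-free libraries; x axis, group; marker shape, replicate; line, group mean). Splenic C26 replicates lie between -0.68 and -0.02, and subcutaneous C26 replicates 1, 2 and 4 between -1.11 and -0.66, while subcutaneous C26 replicate 3 lies within the control range in complexes II to V.

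Within the splenic C26 group, replicate 1 was mostly the lowest library and replicate 3 mostly the highest. The first was lowest in 29 of 44 members, and in 4428 of 13320 genes. The second was highest in 30 members, and in 2896 of all genes. Replicate 1 lay below every sham library in 39 members and 4573 of all genes, and replicate 3 in 26 members and 5963 of all genes. Replicate 1 lay inside the sham range in 4046 genes and replicates 2, 3 and 4 in 1964 to 2433, so the library with the most genes inside the sham range was the one with the lowest levels in this gene set.

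In splenic C26 against sham, 9 members were lower, 1 was higher and 34 did not pass (edgeR quasi-likelihood test, adjusted p under 0.05 with Benjamini-Hochberg adjustment over all 13320 genes). The share of members lower, 20.5%, was near the background, since 23.9% of all genes were lower. Of all genes 28.1% were higher and 52.0% passed in either direction. The 9 were Cycs, Sdhd, Cyc1, Cox7a1, Atp5a1, Atp5g3, Atp5j, Atp5k and Atp5sl, and the higher one was Atp5g2. All 4 splenic C26 libraries lay below all 4 sham libraries in 23 of 44 members (52.3%), against 21.1% of all genes, and above them in 0 members, against 21.1% of all genes. The log2 fold change was below 0 in 39 members, with a median of -0.35 over the members and -0.03 over all genes, so the median member stood at 0.782 of its sham level. Medians were -0.46 for complex II, -0.39 for III, -0.29 for IV and -0.38 for V.

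The number of members called in this comparison changed with the libraries in the fit. Without subcutaneous C26 replicate 3, a library that is not part of the comparison, 25 members were lower and 2 higher, and the 10 called before were all among them. In that fit 26.6% of all genes were lower and 29.3% higher. The library was picked by its values in these members, so the larger count is not separate support. With only the sham and splenic C26 libraries in the fit, 20 were lower and 1 higher, against 19.1% and 24.2% of all genes. Calls of Cycs, Cyc1, Sdhd, Atp5sl and Atp5g2 held without each of the 16 libraries in turn. Leaving out 1 library ended the call of the other 5 at least once. It gave 5 to 27 calls, against 18.5% to 30.4% of all genes lower and 24.5% to 31.2% higher. The lowest number of calls came without sham replicate 1 or 4 or splenic C26 replicate 2 or 4.

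In subcutaneous C26 against control, 34 members fell, 1 rose and 9 did not pass. Of the members 77.3% were lower, against 23.1% of all genes, while 27.0% of all genes were higher. All 9 complex III genes, 3 of 4 complex II genes, Cycs, 9 of 13 complex IV genes and 12 of 17 complex V genes fell. Medians were -0.77 for complex II, -0.64 for III, -0.59 for IV and -0.65 for V, against -0.65 over all members and -0.02 over all genes, and the median member stood at 0.639 of its control level. The 9 that did not pass were Sdha, Cox6a1, Cox6a2, Cox7a2l, Cox8a, Atp5c1, Atp5d, Atp5l and Atp5s. All 4 subcutaneous C26 libraries lay below all 4 control libraries in 10 members (22.7%), near the 20.7% of all genes, and above them in 1 member, Atp5g2, against 25.2% of all genes. Replicates 1, 2 and 4 lay below every control library in 38 members, and in 28 of these (63.6% of the members) replicate 3 did not. Over all genes such a pattern, with replicate 3 alone not below, was found in 12.6%.

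Without subcutaneous C26 replicate 3, 38 members were lower and 0 higher, while 28.0% of all genes were lower and 28.6% higher. Of the 35 calls 34 were kept and that of Atp5g2 was lost (log2 fold change 0.36, adjusted p = 0.058). The medians then were -1.08 for complex II, -0.96 for III, -0.83 for IV and -0.995 for V. The library was picked by its values in these members, so neither the larger count nor the lower medians are separate support. Without splenic C26 replicate 3, control replicate 1 and subcutaneous C26 replicate 4, libraries with Ngp or Mki67 over 10 CPM (a marrow and a proliferation marker), 22 members were lower, against 16.3% of all genes.

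Markers of other fibres and cells were read beside this result. Of 7 slow fibre markers 5 fell (4 without replicate 3), against the 23.1% of all genes that were lower, and their summed level was 67.7 to 112 CPM in subcutaneous C26 and 70.8 to 617 in control, with 0 of 7 at 0 counts in any library. Subcutaneous C26 replicate 3, whose complex levels stood among the controls, had a sum of only 75.3 CPM, and the 70.8 CPM belong to control replicate 1. In splenic C26 0 of 7 slow fibre markers passed, at 123 to 687 CPM against 245 to 1097 in sham. Of 9 fast fibre markers 3 fell and 0 rose in subcutaneous C26 (3 and 0 without replicate 3), against 23.1% and 27.0% of all genes. Their sum was 251173 CPM in replicate 3 and 99426 to 143468 in the other libraries of the group, against 116318 to 189984 in control. In splenic C26 2 of the 9 fell and 1 rose, at 146757 to 189714 CPM against 110489 to 151033 in sham. Of 6 endothelial markers 3 fell in subcutaneous C26 (2 without replicate 3), against 23.1% of all genes lower. Their sum was 192 to 252 CPM, against 313 to 370.005 in control, with 0 of 6 at 0 counts. Replicate 3 had 244 CPM of these and was as low as the others. In splenic C26 1 of the 6 fell and 3 rose, against 23.9% of all genes lower and 28.1% higher, with a sum of 236 to 431 CPM against 265 to 324 in sham. Of 8 hepatocyte genes 7 fell in subcutaneous C26 (7 without replicate 3), against 23.1% of all genes lower. Albumin (Alb), the main product of liver cells, had 0.637, 0.889, 0.663 and 0.3703 CPM in subcutaneous C26 and 16.5, 67.7, 24.6 and 127 in control, and 0 to 2 of the 8 genes were at 0 counts in a subcutaneous C26 library and 0 in control. In splenic C26, where 6 of the 8 rose, Alb had 76.2, 0.0722, 0.611 and 0.0388 CPM against 0.239, 2.25, 0.375 and 0.24 in sham, so its high level there was in replicate 1. The part of these cells in the result was not tested.

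**Figure D2:**
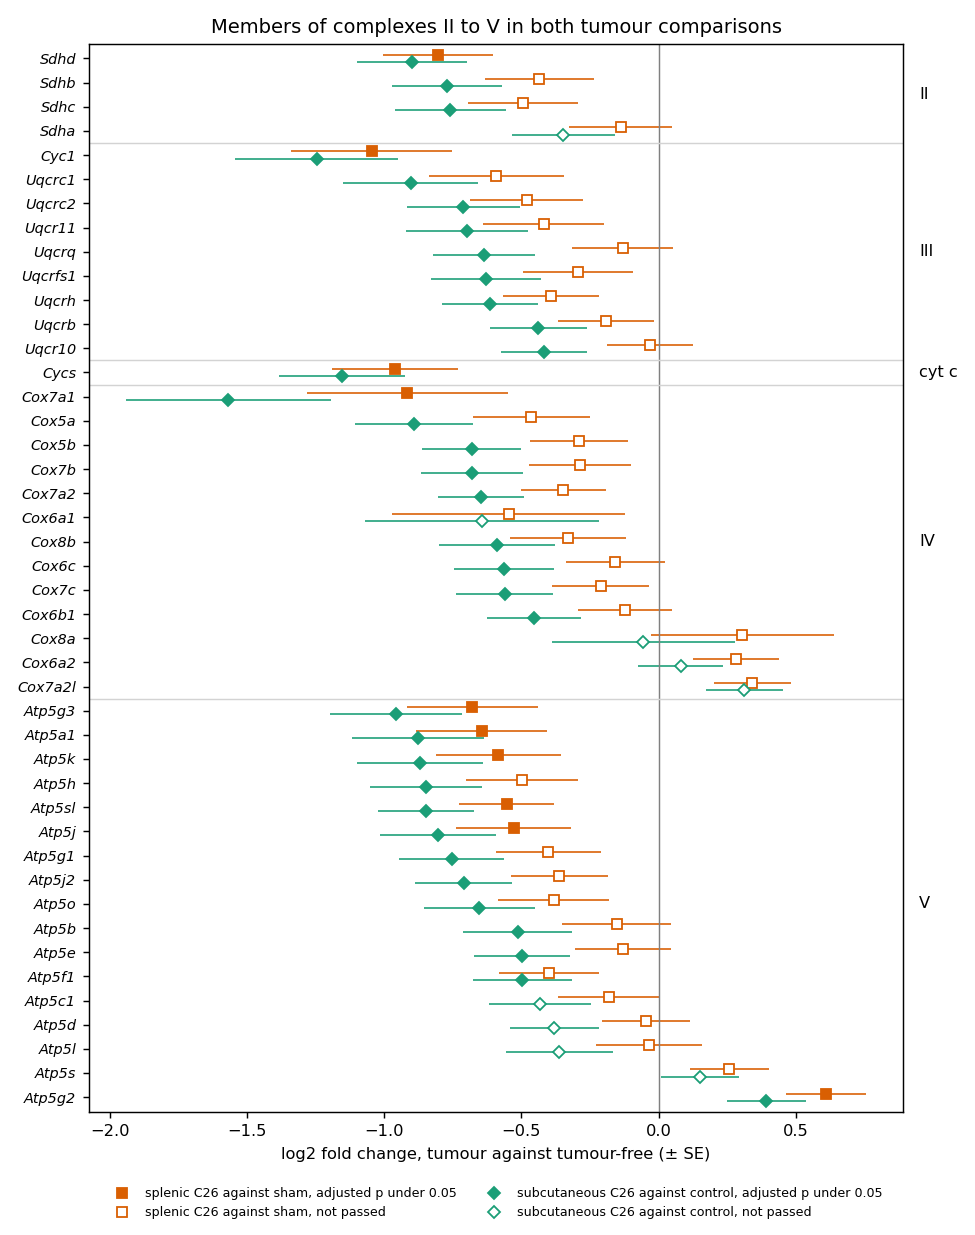
Log2 fold change of each of the 44 members with its standard error (x axis; bars) in both tumour comparisons, grouped by complex (y axis). Filled symbols passed the test (10 in splenic C26 against sham, 35 in subcutaneous C26 against control), and the subcutaneous symbol lies left of the splenic one in every member.

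Library titles share a prefix in sham and splenic C26 and have another in control and subcutaneous C26. What the prefixes stand for is not stated. A difference between the tumours, or between sham and control, cannot be told apart from a difference between the prefixes. The difference between the tumour effects, tested as an interaction, passed in 0 of 44 members and 0 of 13320 genes with edgeR (0% of all genes). At an unadjusted p under 0.05 the count was 0 members, against 6.39% of all genes. DESeq2 found 0 members (1 unadjusted) and 86 genes, and limma-voom 0 members and 0 genes. The fitted difference, splenic minus subcutaneous, was above 0 in all 44 members, from 0.03 to 0.65 with a median of 0.29 log2, so the larger number of calls in the subcutaneous group is not shown to be a difference between the tumours. Without subcutaneous C26 replicate 3, 1 member passed, Cox7a1, with a difference of 1.45 ± 0.21 log2 (SE) and an adjusted p of 0.0313. That library was left out because of its values in these members. Other members came close, such as Atp5k (0.72, adjusted p = 0.0651) and Atp5h (0.70, adjusted p = 0.072), and every member had a difference above 0. Cox7a1 is therefore not shown to differ from the other members. The share of all genes that passed in that fit is not given here.

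Sham against control gave 0 members with edgeR, 0 at an unadjusted p under 0.05 (285 of all genes), and 0 with DESeq2 and limma-voom. Of all genes 0.00751% passed, which is 1 gene, with edgeR, 58 genes with DESeq2 and 1 with limma-voom. Fold changes of the members ranged from -0.12 to 0.26 log2 in this comparison.

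Motifs of known regulators were searched in the promoters of the members. RefSeq windows from 250 bases before to 50 bases after the start (GRCm38.p6) were found for 36 of 44 members. Motif matches were counted on both strands for GCGCATG (core of the NRF1 site), CCGGAAG (ETS factors such as GABP), AAGGTCA (the core of the ERR receptor site) and AAGATGG (YY1). Stretches of 30 bases are shown because they hold the NRF1 or ERR match of members with contrasting values below. Capitals mark the match, read 5′ to 3′ on the strand of the gene.
Sdhb: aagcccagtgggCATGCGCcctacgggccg
Uqcrc1: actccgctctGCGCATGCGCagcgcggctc
Cycs: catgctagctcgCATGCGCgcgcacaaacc
Cox5b: agaggcagaactGCGCATGtgcggcgtcta
Cox6a1: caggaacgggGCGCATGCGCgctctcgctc
Atp5g2: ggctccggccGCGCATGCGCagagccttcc
Sdhd: tttccgggttgtagagTGACCTTgagccct
Atp5g3: gttgttacaaagTGACCTTgagcgtcttcc

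The first 6 of these hold an NRF1 match, and those of Sdhd and Atp5g3 an ERR match. They lie at chr4:140961206-140961235 (plus strand) for Sdhb, chr9:108936668-108936697 (plus strand) for Uqcrc1, chr6:50566611-50566640 (minus strand) for Cycs and chr1:36691424-36691453 (plus strand) for Cox5b. The others lie at chr5:115349101-115349130 (minus strand) for Cox6a1, chr15:102671070-102671099 (minus strand) for Atp5g2, chr9:50603800-50603829 (minus strand) for Sdhd and chr2:73911361-73911390 (minus strand) for Atp5g3. In Uqcrc1, Cox6a1 and Atp5g2 the letters GCGCATGCGC hold 2 overlapping matches, 1 on each strand. The first matched base stands at -42 relative to the RefSeq start in Atp5g2 and at -162 in Cox6a1, and at 36 and 30 past it in Sdhd and Uqcrc1. NRF1 letters were present in 9 of 36 members (25%), against 4.04% of 27025 promoters of all genes and 6.88% of those of genes in the count table. ETS letters were present in 11 (30.6%, against 9.12% and 17.3%), ERR letters in 5 (13.9%, against 4.66% and 3.18%) and YY1 letters in 4 (11.1%, against 6.48% and 7.19%). The NRF1 letters occur in members that fell in a tumour group and in Atp5g2, which rose. They also occur in Cox6a1 and Atp5l, which passed in neither tumour comparison with all libraries. A match is a description of the letters, not a site.

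In complex II, Sdhd fell in both tumour groups, Sdhb and Sdhc fell in subcutaneous C26 and did not pass in splenic C26, and Sdha passed in neither. Sdha, which holds the succinate site, had 886, 866, 877 and 840.5 CPM in sham and 694, 888, 829.7 and 739 in splenic C26, so replicate 2 lay above every sham library and the other 3 below. In control it had 842, 765, 926 and 903 CPM and in subcutaneous C26 511, 592, 1020.3 and 577. Replicates 1, 2 and 4 were the lowest and replicate 3 was above every control. Its log2 fold changes were -0.14 ± 0.19 (SE; adjusted p = 0.549) and -0.35 ± 0.19 (adjusted p = 0.134), and without subcutaneous C26 replicate 3 the second was -0.62 and passed (adjusted p = 0.000869).

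Sdhb (chr4:140961203-140979193, plus strand, mm10), whose protein carries the iron-sulphur clusters, had 375, 390.4, 361 and 370.1 CPM in sham and 254, 318, 298 and 238 in splenic C26. All splenic C26 values lay below sham, but the change of -0.43 ± 0.20 did not pass (adjusted p = 0.0776). In control Sdhb had 380.2, 386, 436 and 359.6 CPM and in subcutaneous C26 181, 198, 362 and 174. It fell there by 0.77 ± 0.20 on the log2 scale (adjusted p = 0.00557; -1.08 without replicate 3), with replicate 3 between the 2 lowest controls. Sdhd, which anchors the enzyme in the membrane, was looked at after its values were seen. It had 200.3, 192, 195 and 184 CPM in sham and 115, 116, 123 and 87.8 in splenic C26, then 188, 179, 209 and 180.4 in control and 81.5, 81.8, 163 and 79.2 in subcutaneous C26. The groups did not overlap in either comparison, and Sdhd fell in both (-0.80 ± 0.20, adjusted p = 0.00425; -0.90 ± 0.20, adjusted p = 0.00224; -1.23 without replicate 3). The other anchor gene, Sdhc, had -0.49 ± 0.20 (adjusted p = 0.0506) and -0.76 ± 0.20 (adjusted p = 0.0066; -1.09 without replicate 3).

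In complex III, the gene of cytochrome c1 was the lowest relative to tumour-free muscle. Cyc1 (chr15:76343523-76346260, plus strand), the haem protein that hands electrons to cytochrome c, had 307, 297, 306 and 324 CPM in sham and 178, 154, 157 and 108 in splenic C26. In control it had 297, 295, 328 and 309 CPM and in subcutaneous C26 83.8, 88.1, 257 and 88.6. Every tumour library lay below every tumour-free library of its pair, including subcutaneous C26 replicate 3. Cyc1 fell by 1.05 ± 0.29 log2 in splenic C26 (adjusted p = 0.00873) and by 1.25 ± 0.30 in subcutaneous C26 (adjusted p = 0.00335; -1.82 without replicate 3).

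The core protein gene Uqcrc1 (chr9:108936633-108949623, plus strand) had 656, 641, 654 and 683 CPM in sham and 443, 461, 478 and 367 in splenic C26. These ranges did not overlap, yet the change of -0.59 ± 0.25 did not pass (adjusted p = 0.0539). It had 624, 615, 743 and 674 CPM in control and 233, 274, 634 and 278 in subcutaneous C26, where it fell (-0.90 ± 0.25, adjusted p = 0.00756; -1.34 without replicate 3). Uqcrfs1 encodes the Rieske iron-sulphur protein and had 355, 349, 362 and 369 CPM in sham and 264, 283, 345 and 280.4 in splenic C26. The splenic C26 values lay just below sham and the change did not pass (-0.29 ± 0.20, adjusted p = 0.232). In subcutaneous C26 it had 179, 197, 377 and 184 CPM, against 335, 349.7, 406 and 361 in control, and it fell (-0.63 ± 0.20, adjusted p = 0.0176; -0.96 without replicate 3). The other 6 genes of the complex, Uqcrc2, Uqcrb, Uqcrh, Uqcrq, Uqcr10 and Uqcr11, did not pass in splenic C26 (-0.48 to -0.03) and all fell in subcutaneous C26 (-0.71 to -0.42; -1.10 to -0.59 without replicate 3).

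Cycs (chr6:50562563-50566538, minus strand), the gene of the somatic cytochrome c, had 242, 265, 267 and 279 CPM in sham and 126, 131, 169 and 114 in splenic C26. It had 281, 273, 297 and 293 CPM in control and 99.5, 103, 219.7 and 90.8 in subcutaneous C26. No tumour library reached its tumour-free group, and subcutaneous C26 replicate 3 was the nearest. Cycs fell by 0.96 ± 0.23 log2 (adjusted p = 0.00328) and by 1.16 ± 0.23 (adjusted p = 0.00113), and without replicate 3 the second value was -1.55. Cycs and Cyc1 were the lowest in splenic C26, and Cox7a1 and Cyc1 in subcutaneous C26.

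In complex IV, the muscle isoform Cox7a1 had the largest drop, while the muscle isoform Cox6a2 did not pass in either comparison. Cox7a1 (chr7:30184144-30186078, plus strand), a subunit of heart and skeletal muscle, had 120.1, 125, 115 and 127 CPM in sham and 70.9, 57.6, 67.2 and 63.01 in splenic C26. In control it had 119, 127, 141 and 119.8 CPM and in subcutaneous C26 18.9, 22.4, 97.3 and 32.2. The groups did not overlap in either comparison, and replicates 1, 2 and 4 of subcutaneous C26 held the lowest levels of all libraries. It fell by 0.92 ± 0.37 log2 in splenic C26 (adjusted p = 0.0479), a call that was lost without any 1 of the sham, splenic C26 or control libraries and held without each subcutaneous C26 library. It was also lost at an adjusted p under 0.01 and without the libraries with Ngp or Mki67 over 10 CPM. In subcutaneous C26 it fell by 1.57 ± 0.37 (adjusted p = 0.00351) and had -2.37 without replicate 3.

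Its widely expressed counterpart Cox7a2 had 92.2, 111, 107 and 108 CPM in sham and 61.9, 80.9, 91.9 and 93.6 in splenic C26, which overlapped. It had 111, 113, 112 and 101 in control and 61.7, 62.8, 94.1 and 60.2 in subcutaneous C26, where the groups did not overlap. The changes were -0.35 ± 0.16 (adjusted p = 0.0737) and -0.65 ± 0.16 (adjusted p = 0.0038; -0.83 without replicate 3). Per length, Cox7a1 made up 68.6%, 65.5%, 64.4% and 66.5% of the sum of Cox7a1 and Cox7a2 in sham and 65.8%, 54.4%, 55.1% and 53.04% in splenic C26. It made up 64.4%, 65.2%, 67.8% and 66.6% in control and 33.9%, 37.5%, 63.4% and 47.3% in subcutaneous C26. Splenic C26 replicate 1 stayed inside the sham range, and all 4 subcutaneous C26 shares lay below control.

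Cox6a2, the subunit of heart and skeletal muscle, had 509.9, 449, 450.2 and 494 CPM in sham and 458, 659, 693 and 504 in splenic C26. It had 441, 461, 539 and 437 in control and 447, 525, 583 and 430.5 in subcutaneous C26. All ranges overlapped, and the changes were 0.28 ± 0.16 (adjusted p = 0.139) and 0.08 ± 0.16 (adjusted p = 0.688; -0.01 without replicate 3). Cox8b, a muscle isoform as well, had 215, 226, 209.7 and 211 CPM in sham and 141, 184, 198 and 162 in splenic C26, without overlap and without passing (-0.33 ± 0.21, adjusted p = 0.198). It had 215, 207, 236 and 194 CPM in control and 96.9, 106, 227 and 137 in subcutaneous C26, and fell there (-0.59 ± 0.21, adjusted p = 0.0306; -0.91 without replicate 3). Replicate 3 was inside the control range. Of the 3 muscle isoforms of the complex, Cox7a1 and Cox8b thus passed in subcutaneous C26 and Cox6a2 did not.

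Cox5a and Cox5b encode subunits without a muscle isoform. Cox5a had 269, 276, 291 and 305 CPM in sham and 176, 199.7, 250.1 and 201 in splenic C26, with 275, 285, 331 and 308 in control and 118, 128, 266 and 134 in subcutaneous C26. Cox5b had 249, 252, 247 and 261 CPM in sham and 172, 204, 238 and 212 in splenic C26, with 252, 252, 290.03 and 252 in control and 126, 139, 246 and 142 in subcutaneous C26. Neither gene overlapped between a tumour group and its tumour-free group. In splenic C26 the changes did not pass (-0.46 ± 0.21, adjusted p = 0.0791 for Cox5a; -0.29 ± 0.18, adjusted p = 0.185 for Cox5b). In subcutaneous C26 Cox5a fell by 0.89 ± 0.21 log2 (adjusted p = 0.00361; -1.24 without replicate 3) and Cox5b by 0.68 ± 0.18 (adjusted p = 0.00637; -0.95 without replicate 3).

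Of the members of complex IV not yet given, Cox6b1, Cox6c, Cox7b and Cox7c did not pass in splenic C26 (-0.29 to -0.12) and fell in subcutaneous C26 (-0.68 to -0.45; -0.95 to -0.67 without replicate 3). Cox7a2l had 68.02, 58.8, 63.9 and 62.3 CPM in sham and 55.4, 87.3, 93.6 and 84.6 in splenic C26. It had 59.7, 61.04, 71.8 and 60.9 in control and 71.5, 80.4, 87.3 and 75.5 in subcutaneous C26. Most tumour libraries were higher than their tumour-free group, except splenic C26 replicate 1, which was below every sham library, and subcutaneous C26 replicate 1, which was inside the control range, and the changes of 0.34 ± 0.14 (adjusted p = 0.0528) and 0.31 ± 0.14 (adjusted p = 0.0765; 0.26 without replicate 3) did not pass.

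Levels of the widely expressed isoforms Cox6a1 and Cox8a differed between the tumour-free libraries. Cox6a1 (chr5:115345642-115348981, minus strand) had 17.8, 86.95, 47.7 and 28.1 CPM in sham and 68.3, 34.96, 26.4 and 20.7 in control. Cox8a had 22.2, 71.7, 39.8 and 31.96 CPM in sham and 62.4, 37.7, 29.2 and 23.3 in control. Both were highest in sham replicate 2 and control replicate 1. Ucp1, the uncoupling protein of brown adipocytes, had 1.57, 297, 84.8 and 15.9 CPM in sham and 199.8, 28.7, 33.9 and 13.5 in control, and was highest in the same 2 libraries. The summed level of 7 adipocyte markers was 1130.4 CPM in sham replicate 2 and 774 in control replicate 1, against 61.4 to 361 in the other sham and 159 to 333 in the other control libraries, with 0 of 7 at 0 counts. Their part in the values of Cox6a1 and Cox8a was not tested.

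In the tumour groups, Cox6a1 had 27.1, 23.4, 28.3 and 44.8 CPM in splenic C26 and 26.1, 19.6, 26.9 and 23.6 in subcutaneous C26. Cox8a had 35.1, 44.96, 54.95 and 69.96 CPM in splenic C26 and 37.6, 34.2, 37.6 and 37.6 in subcutaneous C26. Both overlapped with the tumour-free groups. Cox6a1 changed by -0.55 ± 0.43 (adjusted p = 0.291) and -0.65 ± 0.43 (adjusted p = 0.218; -0.70 without replicate 3), and Cox8a by 0.31 ± 0.33 (adjusted p = 0.457) and -0.05 ± 0.33 (adjusted p = 0.904; -0.07 without replicate 3), without passing. Ucp1 had 0.415, 2.17, 1.46 and 0.815 CPM in splenic C26 and 1.497, 0.508, 2.57 and 0.889 in subcutaneous C26. The adipocyte markers, Ucp1 among them, summed to 150 to 447 CPM in splenic C26 and 425 to 735 in subcutaneous C26. Ucp1 and Plin1 fell and 0 of the 7 rose in splenic C26, against 23.9% of all genes lower and 28.1% higher. In subcutaneous C26 Ucp1 and Lep fell and Cfd rose (2 and 1 also without replicate 3), against 23.1% and 27.0%. The list mixes markers of brown and white adipocytes, which its sum does not separate.

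**Figure D3:**
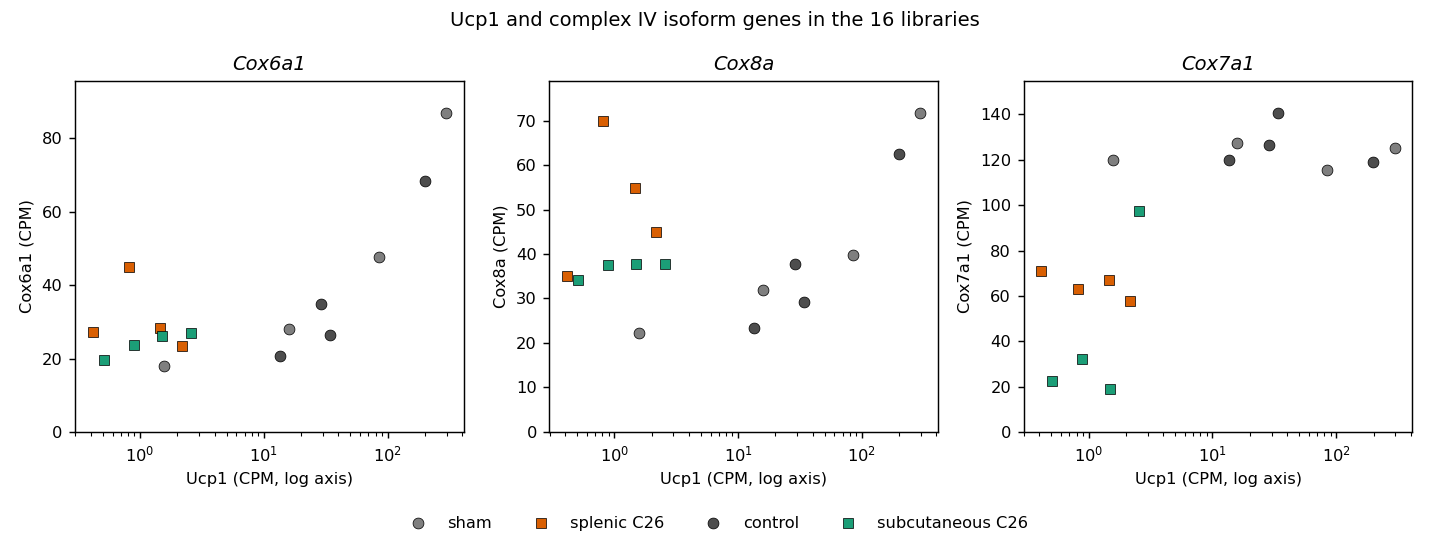
Level of Ucp1 (x axis, CPM on a log scale) against Cox6a1, Cox8a and Cox7a1 (y axes, CPM) in the 16 libraries, coloured by group. The tumour-free libraries with 297 and 199.8 CPM of Ucp1 have the highest Cox6a1, whereas Cox7a1 lies between 115 and 141 CPM in all 8 tumour-free libraries.

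In complex V, the gene of the alpha subunit fell in both tumour groups, and that of the beta subunit fell in subcutaneous C26 and did not pass in splenic C26. Atp5a1 (chr18:77773729-77782869, plus strand) had 2242, 2075, 2130.2 and 2180.4 CPM in sham and 1357, 1448, 1581 and 1131 in splenic C26. It had 2059, 1971, 2479.9 and 2326 in control and 841, 969, 2070.1 and 932 in subcutaneous C26. Splenic C26 lay wholly below sham, and replicate 3 of subcutaneous C26 was within the control range. Atp5a1 fell by 0.65 ± 0.24 log2 (adjusted p = 0.0346) and by 0.88 ± 0.24 (adjusted p = 0.00795; -1.27 without replicate 3). The first call was lost without sham replicate 1, 3 or 4 or splenic C26 replicate 2 or 4 and at an adjusted p under 0.01 (log2 fold change over all alternatives -0.86 to -0.55).

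Atp5b, the catalytic beta subunit, had 2507, 2456, 2432 and 2562 CPM in sham and 1899, 2493, 2415 and 2147 in splenic C26, which overlapped (-0.15 ± 0.20, adjusted p = 0.532). It had 2419, 2303, 2802 and 2579.7 in control and 1339, 1566, 2704 and 1469 in subcutaneous C26. It fell there by 0.51 ± 0.20 (adjusted p = 0.0428), a call that was lost on leaving out any one of sham replicates 1, 3 and 4, control replicates 3 and 4 or any subcutaneous C26 library but replicate 3. It was also lost with only the 8 libraries compared, without the libraries with Ngp or Mki67 over 10 CPM and at an adjusted p under 0.01. Without subcutaneous C26 replicate 3 its log2 fold change was -0.79 (adjusted p = 0.000227).

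The c subunit, which forms the turning ring of the enzyme, is made from 3 genes that encode the same mature protein, Atp5g1, Atp5g2 and Atp5g3, and the 3 did not move together. Reads that match more than 1 of them could be split or lost in counting, so their values are uncertain to that extent. Atp5g2 (chr15:102662864-102672352, minus strand) had 47.9, 40.6, 45.4 and 50.1 CPM in sham and 49.6, 77.7, 84.9 and 69.1 in splenic C26. It had 42.7, 43.4, 52.7 and 52.2 in control and 59.6, 65.5, 66.7 and 59.1 in subcutaneous C26. All subcutaneous C26 libraries lay above control, and 3 of 4 splenic C26 libraries lay above sham while replicate 1 was inside its range. Atp5g2 rose by 0.61 ± 0.15 log2 in splenic C26 (adjusted p = 0.00319) and by 0.39 ± 0.14 in subcutaneous C26 (adjusted p = 0.0341). The second call was lost without control replicate 1, control replicate 2 or any single subcutaneous C26 library, under upper-quartile scaling, among genes with at least 10 CPM in at least 4 libraries, at an adjusted p under 0.01 and without the libraries with Ngp or Mki67 over 10 CPM. Over all alternatives its log2 fold change ranged from 0.16 to 0.44 and its adjusted p from 0.00606 to 0.28.

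Atp5g3, named after its values were seen, had 363, 339, 352 and 375 CPM in sham and 208, 224, 259 and 199.7 in splenic C26. It had 331, 355, 392 and 357 in control and 133, 139, 331 and 137 in subcutaneous C26, where replicate 3 came just under the lowest control. It fell in both comparisons (-0.68 ± 0.24, adjusted p = 0.0269; -0.96 ± 0.24, adjusted p = 0.00471; -1.40 without replicate 3). The first of these calls was lost without sham replicate 1 or 4 or splenic C26 replicate 2 or 4 and at an adjusted p under 0.01. Atp5g1 had 191, 162, 179 and 201 CPM in sham and 121, 146, 163 and 125 in splenic C26, with overlap (-0.40 ± 0.19, adjusted p = 0.0882). It had 157, 179.8, 208 and 198 in control and 87.1, 97.6, 168 and 87.7 in subcutaneous C26 and fell there (-0.75 ± 0.19, adjusted p = 0.00506; -1.03 without replicate 3).

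Per length, Atp5g2 made up 10.8%, 9.96%, 10.6% and 10.9% of the 3 c-subunit genes in sham replicates 1 to 4 and 17.8%, 23.7%, 22.8% and 23.8% in splenic C26. It made up 10.6%, 10.1%, 10.95% and 11.8% in control and 28.7%, 29.6%, 15.6% and 28.01% in subcutaneous C26. Every tumour library had a higher share than every tumour-free library. The share of Atp5g3 was 82.9% ± 0.691 (SD, n = 4) in sham, 71.2% ± 2.89 in splenic C26, 82.6% ± 0.984 in control and 68.0% ± 6.88 in subcutaneous C26. That of Atp5g1 stayed between 6.07% and 6.92% in all 16 libraries. These shares rest on a principal transcript of 4715 bases for Atp5g1, against 731 for Atp5g2 and 723 for Atp5g3. Before division by length, Atp5g1 was not the minor gene, with a sham mean of 183 CPM against 46.0 for Atp5g2 and 357 for Atp5g3. A share within a family does not depend on the scaling of libraries, but it rests on the same counts as the fold changes.

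**Figure D4:**
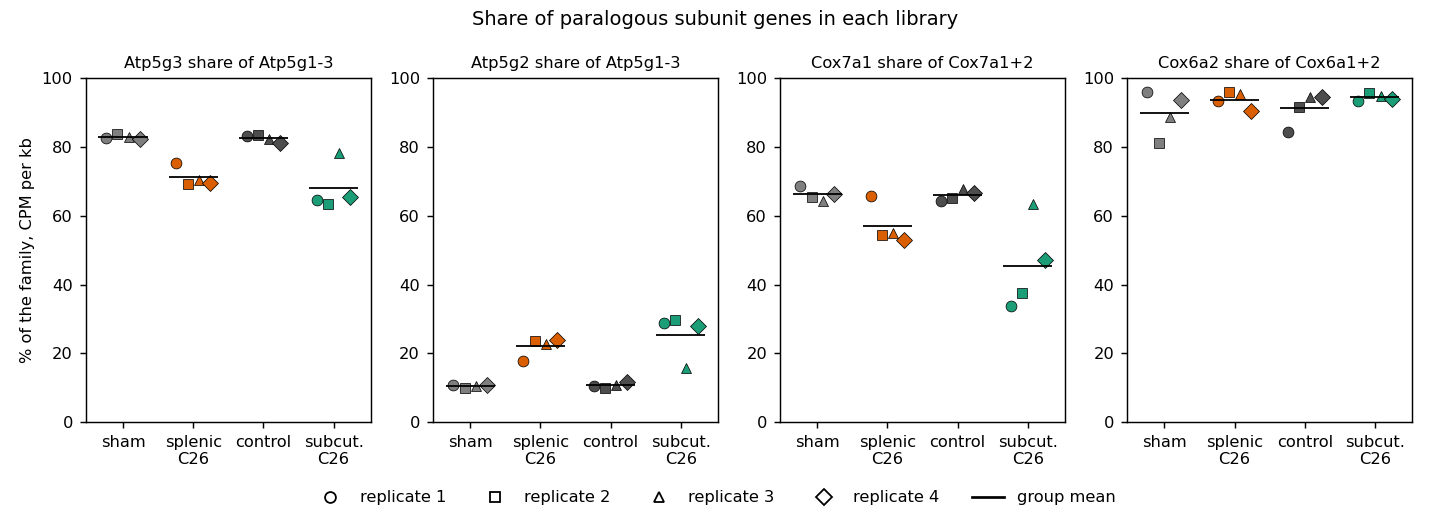
Share of a paralogous gene in the summed CPM per kb of its family (y axis, %, and x axis, group, with replicates by marker shape and the group mean as a line). The c-subunit shares depend on the transcript length taken for Atp5g1, 4715 bases. Atp5g2 goes from 10.6% in sham to 22.0% in splenic C26 and from 10.9% in control to 25.5% in subcutaneous C26, Cox7a1 from 66.2% to 57.1% and from 66.0% to 45.5%, and Cox6a2 stays between 81.3% and 96.0% in all libraries.

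Of the other members of complex V, Atp5j, Atp5k and Atp5sl fell in both comparisons (-0.58 to -0.53 in splenic C26, -0.87 to -0.80 in subcutaneous C26 and -1.30 to -1.07 there without replicate 3), the first 2 being small subunits of the enzyme. Atp5k had 41.1, 39.5, 101 and 46.7 CPM in subcutaneous C26 and 99.2, 107, 111 and 100.02 in control, so replicate 3 was again the 1 library inside the control range. Atp5e, Atp5f1, Atp5h, Atp5j2 and Atp5o fell in subcutaneous C26 (-0.85 to -0.50; -1.20 to -0.71 without replicate 3) and did not pass in splenic C26 (-0.50 to -0.13). Atp5c1, Atp5d, Atp5l and Atp5s passed in neither, with -0.43, -0.38, -0.36 and 0.15 in subcutaneous C26. Without replicate 3 these were -0.69, -0.56, -0.59 and 0.10. Without Atp5s and Atp5sl the medians of complex V were -0.38 and -0.65 as before.

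Genes around the chain were read by the same test, against 23.9% of all genes lower and 28.1% higher in splenic C26 and 23.1% lower and 27.0% higher in subcutaneous C26. The 37 symbols read as complex I subunits include Ndufa4, which is also among the complex IV genes outside the rule. Of these 37, 14 fell and 1 rose in splenic C26, and 32 fell in subcutaneous C26, with medians of -0.45 and -0.74. Without subcutaneous C26 replicate 3 the second values were 35 and -1.05. The complex IV genes outside the rule gave 0 of 3 in splenic C26 and 3 of 3 lower in subcutaneous C26, also without replicate 3. Among them Cox4i1, the main isoform of subunit 4, had 329.7, 437, 465 and 457 CPM in splenic C26 against 434, 454, 441 and 455 in sham. It had 265, 283, 455 and 283 CPM in subcutaneous C26 against 446, 435, 483 and 417 in control and fell there by 0.47 ± 0.17 (adjusted p = 0.0302; -0.69 without replicate 3). Of 33 measured assembly factors of complexes II to V (34 listed), 17 fell and 5 rose in splenic C26 and 16 fell and 3 rose in subcutaneous C26, with medians of -0.36 and -0.38. Without replicate 3, 20 fell and 4 rose in subcutaneous C26, with a median of -0.52. Of 14 measured genes of coenzyme Q synthesis and the electron transfer flavoprotein (16 listed), 4 fell in splenic C26 and 3 in subcutaneous C26 (6 without replicate 3), shares near those of all genes in the fits with all libraries. The 6 mitochondrially encoded subunits listed were not among the genes measured.

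Regulators of the respiratory genes went both ways. Of 14 listed, 3 fell and 7 rose in splenic C26, and 4 fell and 4 rose in subcutaneous C26 (5 and 4 without replicate 3). The number that fell is near the shares of all genes given above. Among the 7 is Ppargc1a, whose call rested on 1 library. Esrra, the nuclear receptor ERRα, had 75.6, 72.9, 72.6 and 82.2 CPM in sham and 39.3, 25.5, 33.5 and 15.8 in splenic C26. It had 66.3, 71.4, 86.96 and 75.6 in control and 19.5, 20.03, 45.5 and 13.4 in subcutaneous C26. No tumour library reached its tumour-free group, and subcutaneous C26 replicate 3 was the highest of the tumour libraries. Esrra fell by 1.41 ± 0.32 log2 (adjusted p = 0.00226) and 1.61 ± 0.32 (adjusted p = 0.00109; -2.09 without replicate 3). The related receptor gene Esrrg fell by 1.49 ± 0.29 (adjusted p = 0.000926) and 1.52 ± 0.29 (adjusted p = 0.000835; -1.72 without replicate 3), and the coactivator gene Ppargc1b by 1.27 ± 0.27 (adjusted p = 0.00178) and 1.74 ± 0.28 (adjusted p = 0.000273; -2.02 without replicate 3).

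Nrf1, the factor whose letters are marked above, rose by 1.07 ± 0.22 log2 (adjusted p = 0.00127) in splenic C26 and 0.91 ± 0.22 (adjusted p = 0.00359; 1.04 without replicate 3) in subcutaneous C26. It had 13.7, 11.9, 12.1 and 13.5 CPM in sham, 15.5, 22.1, 35.3 and 34.4 in splenic C26, 12.1, 11.3, 13.04 and 13.1 in control and 24.4, 26.8, 16.4 and 25.4 in subcutaneous C26. All tumour libraries were above their tumour-free group. Pprc1, another coactivator gene of the list, also rose in both comparisons (adjusted p = 0.000269 and 0.000134). The same holds for Yy1, whose letters were searched as well (adjusted p = 0.000174 and 5.94e-05). Ppargc1a, the coactivator PGC-1α, had 47.7, 54.4, 638 and 59.9 CPM in splenic C26 against 55.7, 58.7, 53.5 and 49.3 in sham. Its call (1.88 ± 0.69, adjusted p = 0.0329) rested on splenic C26 replicate 3, without which the log2 fold change was -0.01 (adjusted p = 0.983). In subcutaneous C26 it had 62.9, 74.5, 141 and 175 CPM against 56, 53.8, 67.7 and 78.7 in control and did not pass (0.82 ± 0.67, adjusted p = 0.319; 0.70 without replicate 3). Splenic C26 replicate 3 also had the highest level of complexes II to V of its group. Neutrophil and marrow markers were high in that group as well, with 7 of 8 rising, against 28.1% of all genes. Their sum was 18.8, 265, 2482 and 635 CPM in splenic C26 replicates 1 to 4, against 1.21 to 1.84 in sham. The level was thus uneven and by far the highest in replicate 3. The fold change of the granule gene Ngp, 9.94 ± 3.01 log2 (SE), had a wide error. In subcutaneous C26 1 of 8 rose (also 1 without replicate 3), with a sum of 23.1 to 442 CPM against 1.45 to 49.004 in control. Their part in these results was not tested.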

How the data were processed

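Quadriceps RNA of 16 libraries was sequenced as 75-base reads. Raw counts by gene symbol were deposited, made by the authors with STAR and featureCounts per the labels; the submitters' processing notes name FastQC, STAR, edgeR and mm10, with versions, annotation and strand setting not given in the sources used here. Without a strand setting, reads of overlapping genes cannot be told apart, and reads shared by near-identical copies (Atp5g1 to Atp5g3, Cox7a2) could be split or lost. A second table of log2 values deposited by the authors served as an alternative. Blank lines without a gene (4013) were left out.

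The main test of the counts was the quasi-likelihood test of edgeR 4.0.16 (R 4.3.3) with TMM factors, robust estimation and a mean for each of the 4 groups, adjusted by Benjamini-Hochberg at 0.05. It was checked on simulated data. CPM are TMM-normalised. Each tumour group was set against its own tumour-free group. limma 3.58.1 and DESeq2 1.42.0 were alternatives. Lengths and mm10 coordinates came from GENCODE M21, promoters from RefSeq (GRCm38.p6). The rule named 17 central or isoform members and the 2 lowest and 2 highest per tumour comparison; others named individually were chosen after their values were seen. Members and lists were chosen with earlier results of these data known.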

Additional observations from a re-analysis of the deposited data

Results flagged for a closer look

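Groups of 4 libraries were read for the complex levels and the CPM of members fixed by the naming rule, so not for Sdhd, Atp5g3 or Atp5k. Of 92 such groups, 20 had a library set apart from the other 3 by Dixon's criterion, which chance meets in about 1 of 20 groups. Subcutaneous C26 replicate 3 was the high library in 16 of them. Its level was -0.033 for complex II (nearest other library -0.93), -0.0027 for complex III (-0.96) and 0.041 for complex V (-0.77). In complex II it had 1020.3 CPM of Sdha and 362 CPM of Sdhb. In complex III and beside it, the values were 634 CPM of Uqcrc1, 377 of Uqcrfs1, 257 of Cyc1 and 219.7 of Cycs. In complex IV they were 266 CPM of Cox5a, 246 of Cox5b, 97.3 of Cox7a1 and 94.1 of Cox7a2. In complex V they were 2070.1 CPM of Atp5a1, 2704 of Atp5b and 168 of Atp5g1. Control replicate 3 was the high library for the complex III level (0.13), Cox5b (290.0 CPM) and Cox7a2l (71.8 CPM). Subcutaneous C26 replicate 2 was low for Cox8a, with 34.2 CPM where the nearest other library had 37.6. Over all 44 members and 176 groups, subcutaneous C26 replicate 3 was set apart in 32, control replicate 3 in 2 and subcutaneous C26 replicate 2 in 1.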

How the results depend on the processing

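Of the 44 members, 10 were called in splenic C26 against sham, where 23.9% of all genes were lower and 28.1% higher. Under upper-quartile scaling the count was 28, against 32.9% and 20.6%. It was 24 among genes with at least 10 CPM in at least 4 libraries (27.6% and 32.2% of these genes). With only the libraries compared it was 21 (19.1% and 24.2%), and at an adjusted p under 0.01 it was 4 (12.8% and 20.3%). Without single libraries it was 5 to 27, against 18.5% to 30.4% lower and 24.5% to 31.2% higher. In subcutaneous C26 against control, 35 were called, where 23.1% of all genes were lower and 27.0% higher. At an adjusted p under 0.01 the count was 20, against 12.3% and 19.1%. Without the libraries with Ngp or Mki67 over 10 CPM it was 22 (16.3% and 19.4%). Without single libraries it was 27 to 39, against 17.4% to 28.0% lower and 20.6% to 28.6% higher. For the difference between the tumour effects the count was 0 in 9 other settings and 0 to 1 without single libraries, and for sham against control 0 in every setting run. Upper-quartile scaling moved the median of all genes to -0.24 and -0.26 log2 and the share of higher calls from 54.0% to 38.5% and from 53.9% to 34.9%. The splenic medians were then -0.68, -0.61, -0.51 and -0.60 for complexes II, III, IV and V; all 8 complex medians stayed below 0 in every setting run. Without single libraries the splenic medians ranged from -0.52 to -0.39, -0.43 to -0.32, -0.36 to -0.18 and -0.43 to -0.31, and the subcutaneous ones from -1.08 to -0.69, -0.96 to -0.57, -0.83 to -0.51 and -0.995 to -0.56. The sign changed only for members that passed in neither setting: in splenic C26 for Atp5d (0.0056 without sham replicate 4, 0.054 without splenic C26 replicate 1; without single libraries -0.14 to 0.054), Atp5l (0.013 without sham replicate 1, 0.12 without splenic C26 replicate 1; without single libraries -0.13 to 0.12) and Uqcr10 (0.099 without splenic C26 replicate 1; without single libraries -0.14 to 0.099); in subcutaneous C26 for Atp5s (-0.085, upper quartile), Cox6a2 (-0.16, upper quartile; -0.061, 10 CPM filter; -0.0066 without replicate 3; without single libraries -0.0066 to 0.15) and Cox8a (0.046 with limma-voom and with the deposited log2 values, 0.26 without the Ngp or Mki67 libraries, 0.27 without control replicate 1; without single libraries -0.23 to 0.27). The cause was not tested. No paired analysis was possible because the replicate numbers only name libraries and pair none. Every member had at least 263 counts in each library.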
